A study of Mus musculus with 2 samples.

Results

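A group of 10 genes that coat, shape or empty the lipid droplet were followed in the liver of apolipoprotein E-deficient mice fed oleanolic acid, a plant triterpenoid. They were the perilipins Plin2, Plin3, Plin4 and Plin5, the CIDE genes Cidea, Cideb and Cidec, the lipases Pnpla2 and Lipe, and the lipase inhibitor gene G0s2. Every probe set annotated with 1 of these 10 symbols and no other was taken, which gave 11 probe sets of the 22626 on the array that are not controls. All 10 genes had at least 1, and Pnpla2 had 2. They are 10 of 12393 genes with a probe set of their own. The rule takes genes by name and uses no measured value, although the list was drawn up with earlier results of these data known.

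The oleanolic acid group was male mice lacking apolipoprotein E on a C57BL/6J background, given a Western diet with 0.01% oleanolic acid (10 mg/kg/day) for 11 weeks. The control group had the same sex, genotype and background and received the semipurified Western diet for 11 weeks. Both carry an age label of 2 months, and the growth protocol places that age at the start of feeding. Both groups lack apolipoprotein E and both ate the Western diet, so no lean or wild-type liver enters the comparison. Each group was 1 pool of liver RNA on 1 Affymetrix 3' expression array, and how many mice a pool holds is not stated in the labels. With n = 1 array per diet there is no replicate check and no p-value, and each difference below describes these 2 arrays.

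Hepatocytes store triglyceride and cholesterol ester in droplets bounded by a phospholipid monolayer. Perilipins sit on that surface and limit access of lipases, while CIDE proteins let lipid pass between droplets that touch. Adipose triglyceride lipase, encoded by Pnpla2, takes the first fatty acid from triglyceride and is held back by the G0s2 protein, and hormone-sensitive lipase, encoded by Lipe, acts mainly on diglyceride. In liver, Plin2 protein is a common marker of fat storage, and several of these genes are targets of PPAR receptors.

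Values are linear MAS5 signals, the intensity of a probe set as the authors deposited it, with no detection calls. A probe set was called measured when its signal reached the array median on at least 1 array (59.3 in the oleanolic acid array, 61.5 in the control array), and dim otherwise. Before taking log2, signals below the 25th percentile of an array were raised to it, a floor of 10.1 in the oleanolic acid array and 10.7 in the control array. Each log2 ratio is oleanolic acid over control. Its error is the probe set SD, the pooled SD of log2 ratios between probe sets of 1 gene at like signal, which covers probe error on these arrays and not variation between mice. Signals of different probe sets were not compared with each other. Sums over a list add them, so the brightest probe sets weigh most in each sum.

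Of the 10 genes, 8 were measured through 1 probe set each, and Cidea and Cidec were dim, as was the second Pnpla2 probe set. None of the 8 measured members lay beyond a log2 ratio of 1.5 in either direction, the size named in the submitters' design text, against 0.392% of 7137 measured genes. None lay above 0.5, where 2.63% of measured genes lay, and none below -0.5, where 3.24% did. At those shares a count of 0 among 8 genes is near the background. The members' median log2 ratio was 0.14, with 5 above 0 and 3 below, beside a median of 0.0012 over all measured genes. Plin2 was the highest at 0.45 and Lipe the lowest at -0.26, and the dim Cidea signals differed by more than those of any measured member.

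**Figure D1:**
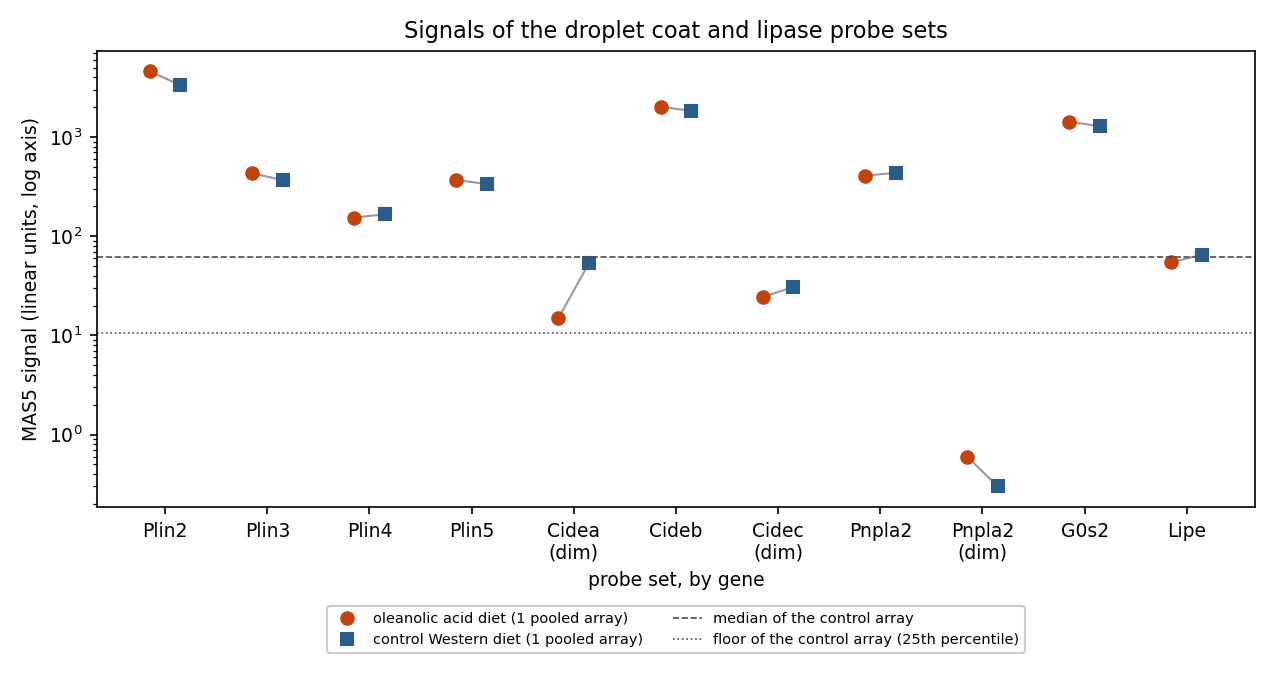
MAS5 signal on a log axis of each of the 11 probe sets in the oleanolic acid array (circles) and the control array (squares), 1 pooled array per diet, with the median and the floor of the control array as lines. Plin2 was higher in the oleanolic acid array (4578 against 3343), Cidea was lower (15 against 53.9), and the second Pnpla2 probe set lay below the floor on both arrays.

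Hepatocyte genes were measured in both pools. Of 10 fixed hepatocyte markers, 9 had a probe set of their own and all 9 were measured, with a median log2 ratio of 0.03, 5 above 0 and 4 below. The only one beyond 0.5 in size was Tat, tyrosine aminotransferase, at -0.70 (probe set SD 0.13), with 2725 in the oleanolic acid array and 4439.7 in the control array. Albumin, Alb, had signals of 8950.3 in the oleanolic acid array and 8540 in the control array. The probe set named Apoe had 232 in the oleanolic acid array and 194 in the control array, and since its place relative to the disrupted part of the gene is unknown, it does not check the genotype.

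Plin2 encodes the droplet coat protein adipophilin, which is present on hepatocyte droplets and is degraded when it is not bound to lipid. Its signal was 4578 in the oleanolic acid array and 3343 in the control array, 1.37-fold higher with oleanolic acid. On the log2 scale the ratio was 0.45 with a probe set SD of 0.13. Of the 8 measured members, 4 lay within their probe set SD of 0, and Plin2 alone lay more than 2 such SDs from it. The share of all measured genes past these limits was not computed, so these counts have no background to be read against. Among the 1000 probe sets nearest to it in mean signal, 22 had a ratio at least as far from 0, and the central 95% of them lay between -0.27 and 0.31. Macrophages and stellate cells also make Plin2, and in bulk RNA fewer cells of a type and less RNA per cell cannot be told apart. Of 12 measured macrophage markers, 11 were below 0 and 1 above, beside 3547 of all 7137 measured genes below 0. With quantile normalization or intensity-dependent centring, 10 of the 12 were below 0. The macrophage list summed to 19803 in the oleanolic acid array and 21302 in the control array. Stellate markers summed to 6343 in the oleanolic acid array and 6354 in the control array, with 3 of 5 measured above 0. The highest of them, Lrat at 0.66 (probe set SD 0.27), was measured through the oleanolic acid array alone, so its direction was largely set by the rule for measured genes. With both signals required to reach their array medians, 2 of 4 were above 0. The part of either cell type in the Plin2 value was not tested.

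**Figure D2:**
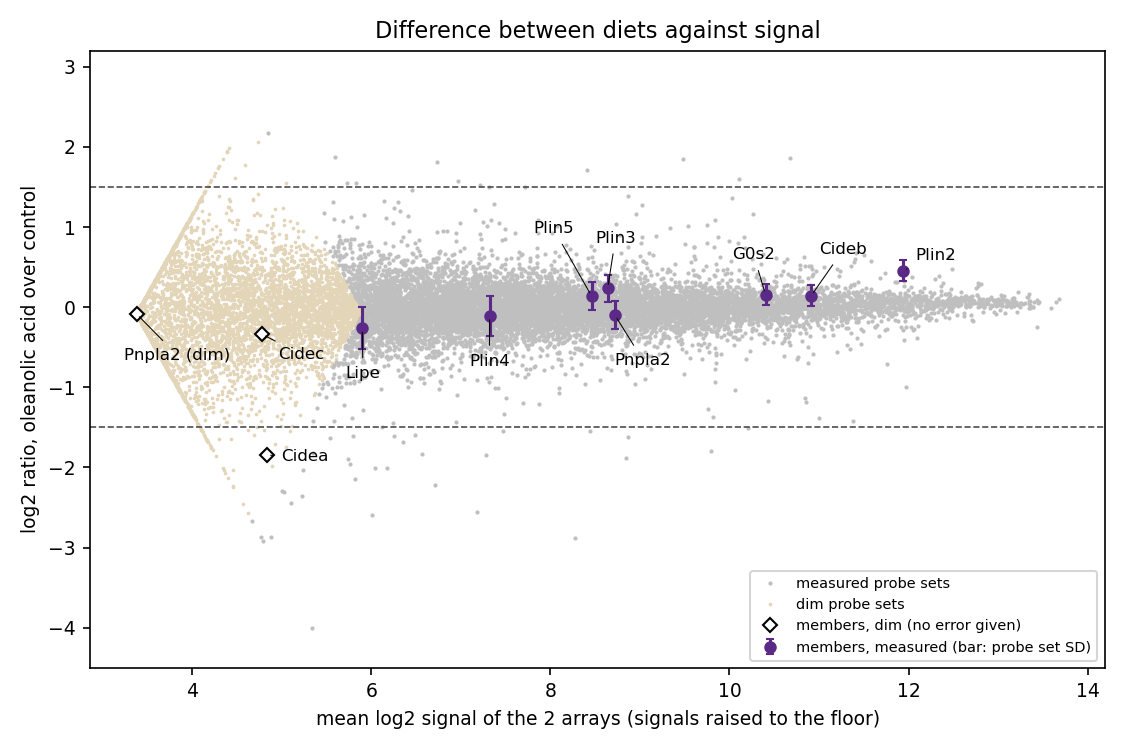
Log2 ratio of oleanolic acid over control against the mean log2 signal of both arrays, for all probe sets with 1 gene symbol (small points) and for the members (circles with the probe set SD where measured, diamonds where dim), with dashed lines at 1.5 and -1.5. Plin2, at 0.45, lay at the upper edge of the points of like signal, the other measured members lay between -0.26 and 0.23, and Cidea was the only member beyond a line, at -1.85 (-1.17 with log2(signal + 16) in place of the floor). The dim Pnpla2 point is set by the floor.

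The sequences before the start sites of Plin2 and Lipe are shown because these genes were the highest and the lowest of the measured members. Lipe was measured through the control array alone, and its ratio was within its probe set SD of 0. Each window runs from 250 bases before to 50 bases after the annotated start (RefSeq, GRCm38.p6, minus strand, printed 5' to 3' in the direction of transcription). Capitals mark matches, on either strand, to CACGTG, the E-box read by clock and other helix-loop-helix factors, or to AGGTCA, the core read by nuclear receptors. The Plin2 window is chr4:86670010-86670309 and the Lipe window is chr7:25395938-25396237, 1 of the 2 windows listed for Lipe. The other Lipe window, not shown, held no match.
Plin2: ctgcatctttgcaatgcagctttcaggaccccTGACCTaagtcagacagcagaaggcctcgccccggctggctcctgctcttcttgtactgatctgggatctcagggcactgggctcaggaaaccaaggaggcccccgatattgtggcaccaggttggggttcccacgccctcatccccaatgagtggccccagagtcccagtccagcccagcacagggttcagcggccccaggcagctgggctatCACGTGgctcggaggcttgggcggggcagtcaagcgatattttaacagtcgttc
Lipe: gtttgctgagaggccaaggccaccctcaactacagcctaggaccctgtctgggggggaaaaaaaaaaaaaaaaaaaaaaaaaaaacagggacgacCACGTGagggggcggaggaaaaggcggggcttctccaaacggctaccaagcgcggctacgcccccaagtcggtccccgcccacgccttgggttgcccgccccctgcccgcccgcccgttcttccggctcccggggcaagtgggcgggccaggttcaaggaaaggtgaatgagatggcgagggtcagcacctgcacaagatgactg

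In the Plin2 window the E-box began 4 bases before the start site, and the AGGTCA core, on the other strand, began 218 bases before it. In the Lipe window the E-box began 155 bases before the start site. Windows of 9 of the members, 12 in all, were searched, and no window of Cidea was searched. An E-box was found in 2 of the 12, the Plin2 window and the Lipe window shown, against 7.15% of 32851 windows of the same length. The AGGTCA core was found in 3 of the 12, those of Plin2 and both of Plin5, against 16.3% of all windows. The 2 Plin5 windows overlap, and by gene the core was found for 2 of the 9 members searched. AGGTCANAGGTCA, a perfect form of the direct repeat bound by PPAR and RXR was in none of the 12 and in 0.04% of all windows. TATAAA was found in 1 of them, that of Cideb, and in 13.6% of all windows. A match describes these letters in this window and no binding was measured.

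The other perilipins differed less between the arrays. Plin3, also called TIP47, coats small and newly formed droplets in many tissues, and its signal was 432.5 in the oleanolic acid array and 367.6 in the control array. Its log2 ratio of 0.23 was larger than its probe set SD of 0.17, but 221 of the 1000 probe sets nearest in signal differed at least as much. Plin5 ties droplets to mitochondria in oxidative tissues and is a PPAR-alpha target in liver. It had signals of 369.5 in the oleanolic acid array and 335.3 in the control array, a log2 ratio of 0.14 that was within its probe set SD of 0.17. Plin4, a coat of nascent droplets found mainly in fat and muscle, had 154.3 in the oleanolic acid array and 166.1 in the control array. Its log2 ratio of -0.11 was less than its probe set SD of 0.25. Plin4 and Plin5 are neighbouring genes in the RefSeq annotation of GRCm38.p6, and their ratios lay on opposite sides of 0 while neither exceeded its error. The remaining family member, Plin1, the coat of adipocyte droplets, was not analysed here.

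The CIDE genes were measured unevenly. Cideb, the CIDE gene typical of hepatocytes, where it takes part in loading very low density lipoprotein with lipid, had 2023 in the oleanolic acid array and 1834 in the control array. The log2 ratio was 0.14, just above the probe set SD of 0.13, and 296 of the 1000 probe sets nearest in signal differed at least as much. Its only probe set is of the kind that can detect more than 1 transcript, and in the annotation Cideb overlaps Nop9 and Ltb4r2. Cidec, known as FSP27 and linked to large droplets in fat and in fatty liver, was dim, with 24.4 in the oleanolic acid array and 30.8 in the control array. The log2 ratio of those dim signals, -0.34, was reached or passed in size by 475 of the 1000 nearest probe sets.

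Cidea had the widest difference of any member. It is the CIDE gene of brown fat, low in normal liver and raised in fatty liver of mice. Its signal was 15 in the oleanolic acid array and 53.9 in the control array, a log2 ratio of -1.85. With log2(signal + 16) in place of the floor the ratio was -1.17, which is not below -1.5. Both signals were above the floor and below the array medians, so Cidea did not enter the measured genes. Of 5576 dim probe sets above the floor on at least 1 array, 38 had a log2 ratio below -1.5, which is 0.681%. Among the 1000 probe sets nearest to Cidea in mean signal, 10 differed at least as much in either direction. Whether its lower signal was above background is unknown without detection calls.

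Several genes that define fat tissue were lower in the oleanolic acid array beside Cidea. Ucp1, the uncoupling protein of brown fat, had 1.0 in the oleanolic acid array and 76.4 in the control array, at least 7.56-fold lower when the lower signal is set at the floor. Cox8b, which encodes a part of cytochrome oxidase used in brown fat and muscle, had 9.5 in the oleanolic acid array and 64.0 in the control array, at least 6.34-fold lower. Adipoq, which encodes adiponectin and was picked out after its values were seen, was dim at 9.2 in the oleanolic acid array and 47.7 in the control array, at least 4.72-fold lower. Fabp4, the fatty acid carrier of adipocytes and macrophages, had signals of 273.8 and 74.9 in the oleanolic acid array for its 2 measured probe sets, against 512 and 133.5 in the control array. Averaged over them, Fabp4 lay at -0.87 ± 0.05 on the log2 scale (SD, n = 2 probe sets). These 4 were picked with their values or earlier results known, so their shared direction is no support for that of Cidea. Of the other measured genes of the same lists, Lpl at -0.01, Car3 at 0.02 and Slc29a1 at -0.02 lay near 0. Cav1 at -0.48, Ppargc1a at -0.46, Pck1 at -0.25 and Cox7a1 at -0.14 lay below it.

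Across the whole brown fat list, 7 of 10 genes had a probe set and 5 were measured. The list summed to 975.3 signal units in the oleanolic acid array and 1298.4 in the control array. All 5 measured genes were below 0, beside 3547 of all 7137 measured genes. Of the 5, 2 were below -1.5, beside 20 of the 7137. Those 2, Ucp1 and Cox8b, were measured through the control array alone, so they could enter only as lower with oleanolic acid. With quantile normalization or intensity-dependent centring 1 of the 5 was above 0. Cox7a1 was at -0.14 (probe set SD 0.27), Ppargc1a was at -0.46 ± 0.15 (SD, n = 5 probe sets), and Zic1 was below the floor on both arrays. Of the white fat list, 8 of 10 genes had a probe set and 5 were measured, 4 below 0 and 1 above, with sums of 26559.8 in the oleanolic acid array and 27597 in the control array. That sum is carried by Car3, which male hepatocytes also express and whose log2 ratio was 0.02 ± 0.03 (SD, n = 2 probe sets). Lep and Retn lay below the floor on both arrays. All 11 muscle markers were dim, with sums of 121.2 in the oleanolic acid array and 107.2 in the control array. Over all probe sets of the exocrine pancreas list, signals summed to 455 in the oleanolic acid array and 1639.7 in the control array. All 8 of its measured genes were below -0.5, where 3.24% of all measured genes lay. But all 8 were measured through the control array alone, so that count was largely set by the rule for measured genes. The part of these tissues in the Cidea difference was not tested. Plin4, Plin5 and Lipe, which fat also expresses, lay between -0.26 and 0.14.

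**Figure D3:**
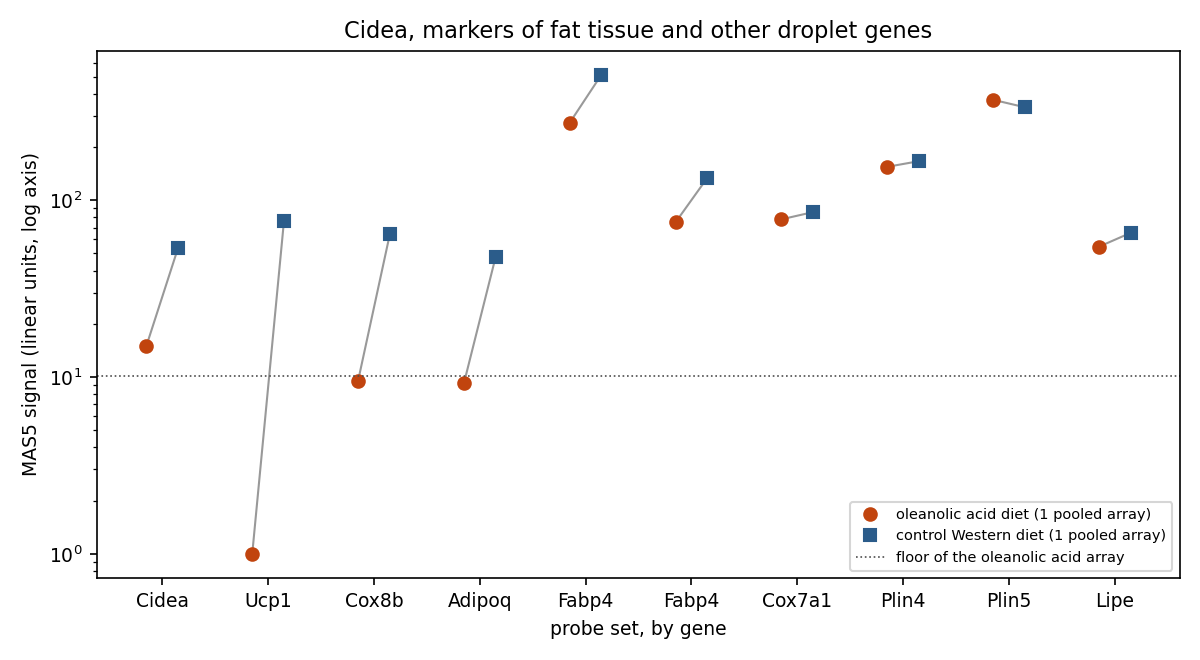
MAS5 signal on a log axis of Cidea, of fat tissue genes (Fabp4 by its 2 measured probe sets) and of Plin4, Plin5 and Lipe in the oleanolic acid array (circles) and the control array (squares), with the floor of the oleanolic acid array as a line. Ucp1, Cox8b and Adipoq lay below that line in the oleanolic acid array and Cidea did not, while Cox7a1, Plin4, Plin5 and Lipe had closely spaced pairs of signals.

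The lipases and their inhibitor had nearly equal signals in both arrays. Pnpla2 had 407.6 in the oleanolic acid array and 436.1 in the control array through its measured probe set. The log2 ratio of -0.10 was within the probe set SD of 0.17. Its second probe set had 0.6 in the oleanolic acid array and 0.3 in the control array, below both floors, and carries no ratio. G0s2 had 1429 in the oleanolic acid array and 1283 in the control array. The log2 ratio of 0.16 was above the probe set SD of 0.13. The inhibitor gene was thus slightly above 0 and the lipase gene slightly below, and among the 1000 probe sets nearest in signal 297 differed at least as much as G0s2 and 575 at least as much as Pnpla2. Lipe had 54.5 in the oleanolic acid array and 65.3 in the control array, and its log2 ratio of -0.26 was within the probe set SD of 0.27. Only its control signal reached the array median, so Lipe was measured through the control array alone.

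The other genes of lipolysis and of the droplet surface stayed close to 0. Of 21 genes in this list 16 had a probe set and 13 were measured. None was above 0.5, where 2.63% of all measured genes lay, or below -0.5, where 3.24% did. The median was -0.0095, whose sign turned in 3 of 9 alternative settings, and the range ran from -0.09 to 0.12. Abhd5, which encodes the activator of the Pnpla2 lipase, was at -0.01 ± 0.03 (SD, n = 2 probe sets). Mgll, the monoglyceride lipase that ends the pathway, was at -0.05 ± 0.03 (SD, n = 3 probe sets). The highest were Lipa, lysosomal acid lipase, at 0.12 ± 0.07 (SD, n = 3 probe sets), and the carboxylesterase genes Ces1g at 0.12 and Ces1f at 0.09, and the lowest were Ubxn4 at -0.09 and, after Mgll, Ces2a at -0.02. Hilpda, another inhibitor of Pnpla2, was dim, with 52.1 in the oleanolic acid array and 39.8 in the control array. Pnpla3 (36.7 and 35.0) and Hsd17b13 (35.5 and 38.9, oleanolic acid first in each pair) were dim too.

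Among measured genes of these droplet lists, the one furthest from 0 belonged to droplet formation. Of 14 measured members, none was above 0.5 and 2 were below -0.5, with a median of -0.10, 5 above 0 and 9 below. Among all 7137 measured genes, 2.63% lay above 0.5 and 3.24% below -0.5. These 2 were the lipins, phosphatidate phosphatases that make the diglyceride for triglyceride synthesis. Lpin1 was at -1.15 ± 0.03 (SD, n = 2 probe sets) and Lpin2 at -0.56 ± 0.07 (SD, n = 3 probe sets). Pcyt1a, which makes the phosphatidylcholine of growing droplets, was at -0.36 ± 0.13 (SD, n = 4 probe sets). Dgat2, the final triglyceride synthesis enzyme, was at -0.15 ± 0.02 (SD, n = 2 probe sets), and its partner Dgat1 at 0.01 (probe set SD 0.17). Bscl2, which encodes seipin, was at -0.03 ± 0.06 (SD, n = 2 probe sets), and the triglyceride-binding gene Fitm1 at -0.09 (probe set SD 0.13). Spg20 (0.19), Aup1 (0.08) and Spast (0.02) were the highest, and Fitm2 was not analysed here.

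**Figure D4:**
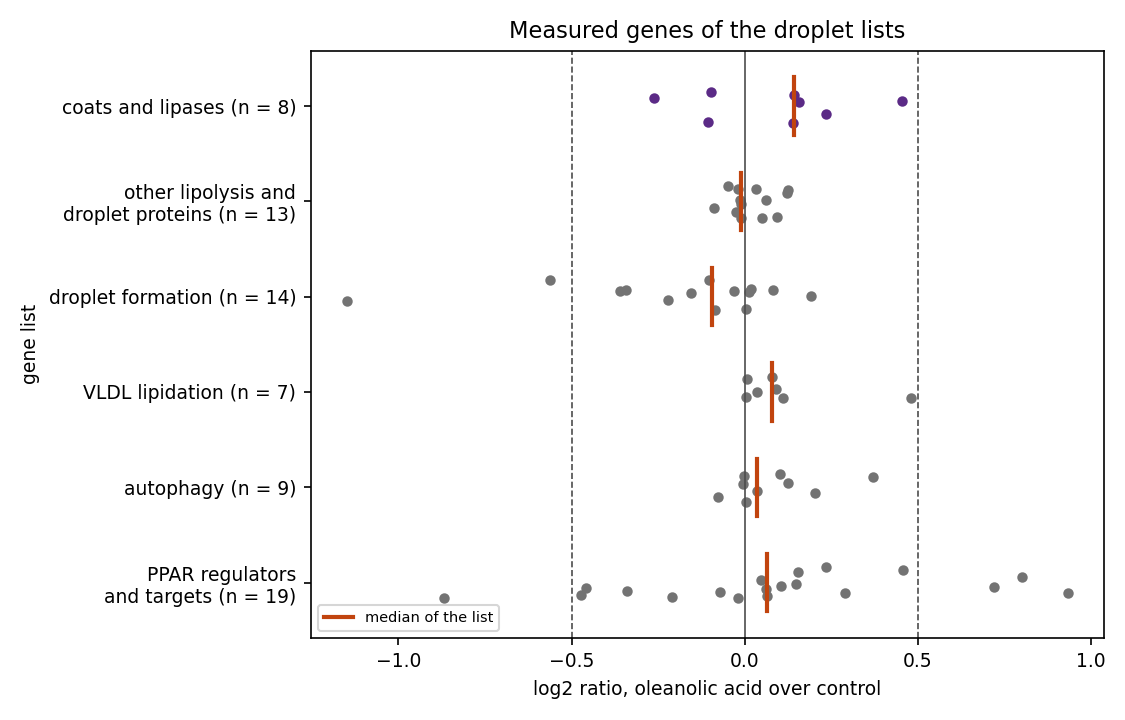
Log2 ratio of oleanolic acid over control for each measured gene (points, scattered vertically for visibility) of 6 droplet-related lists, with the list median as a bar and dashed lines at 0.5 and -0.5. No measured coat or lipase gene lies beyond a dashed line, and in the droplet formation list Lpin1 (-1.15) and Lpin2 (-0.56) do.

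Lipid that leaves droplets is secreted, oxidised or digested in lysosomes, and lists for these routes were set beside the members. For lipidation of very low density lipoprotein, 7 of 7 genes were above 0 but none above 0.5, with a median of 0.08. Of all 7137 measured genes, 3583 were above 0 and 2.63% above 0.5. Without the _x_at and _s_at kinds of probe set, 6 of 7 genes of the list were above 0. With quantile normalization 6 of 7 were above 0 and the median was 0.04, and with intensity-dependent centring 6 of 7 and 0.03. Pla2g12b, needed in mice for secretion of these particles, was highest at 0.48 (probe set SD 0.13), and Mttp, the transfer protein, was at 0.11 ± 0.02 (SD, n = 2 probe sets). The autophagy list had 9 measured genes, none above 0.5 (2.63% of all measured genes) or below -0.5 (3.24%), and a median of 0.03. Its highest value was that of the receptor gene Sqstm1, at 0.37, and its lowest that of Hspa8, at -0.08 ± 0.14 (SD, n = 4 probe sets).

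The PPAR list holds the receptors that regulate Plin2, Plin5, Cidea and Cidec, and their targets. Of 19 measured genes, 3 were above 0.5 and 1 below -0.5, with a median of 0.07. The shares over all measured genes were 2.63% above 0.5 and 3.24% below -0.5, and no test was made of the difference. The higher ones were Pdk4 (0.93), a kinase that inhibits pyruvate oxidation, Acot1 (0.80), an acyl-CoA thioesterase, and the hepatokine gene Fgf21 (0.72), and the lower one was Fabp4. Ppara had 1142 in the oleanolic acid array and 1446 in the control array, with a log2 ratio of -0.34 and a probe set SD of 0.13. Pparg had 129.1 in the oleanolic acid array and 94.1 in the control array, with a log2 ratio of 0.46 and a probe set SD of 0.27. Cd36, a fatty acid transporter, was at 0.15 ± 0.05 (SD, n = 3 probe sets), and the coactivator gene Ppargc1b at -0.47 (probe set SD 0.17). These receptor genes lay on opposite sides of 0.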

How the data were processed

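Liver RNA of 2 pools, 1 per diet, was labelled with biotin as cRNA and hybridised to Affymetrix 3' arrays, per the labels. The authors deposited linear intensities, 1 per probe set, for which the submitters' processing notes name MAS5 without a version. After trimming 2% at each end, their mean was 300.1 on both arrays, so no further scaling was applied. Groups were taken from the sample titles, because the growth protocol of the control also names oleanolic acid. Of 22690 probe sets, 64 controls were left out, 20380 had 1 gene symbol in the platform annotation, 691 had several and 1555 none. The last 2 kinds gave no gene value. All 10 members matched RefSeq (GRCm38.p6) by gene identifier. The labels name no genome build, so no coordinates are given for genes or probe sets, and the 2 promoter windows are printed with the coordinates of the RefSeq table they come from.

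Measured probe sets of a gene were averaged to give its log2 ratio. The pooled probe set SD over 2427 genes with several measured probe sets was 0.20, and it was 0.27, 0.25, 0.17 and 0.13 in 4 bands of rising mean signal. A gene with several measured probe sets has their own SD. These are log2 ratios of deposited signals and need not equal the MAS5 signal log ratio. The number of arrays limits the precision. No test was made. The members, lists and sizes were chosen with earlier results of these data known. Genes were named by a rule: every member, up to 3 measured genes per direction and list with the largest log2 ratio in size, and a fixed set of droplet genes. The marker lists depart from it. Some of their genes with large ratios are not named, and others, among them Zic1, Lep and Retn, are named outside the rule. The procedure was tested on simulated data, with planted changes in measured genes that were larger than the ratio of any measured member. It does not test the small ratios of the members or the dim Cidea value. There were 9 alternatives, which changed the floor, the measured rule, the scaling, the gene summary and the probe sets used. Python 3.11.15 with pandas 2.3.3, numpy 2.4.6, scipy 1.17.1 and statsmodels 0.14.6 was used.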

Additional observations from a re-analysis of the deposited data

How the results depend on the processing

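Across the 9 alternative settings, 70 values of the 8 measured members could be computed, and all 70 lay within the probe set SD of the main value. Many of them could not move. Most members have 1 bright probe set, whose ratio stays the same when the floor is the array median. The same holds when the measured rule, the gene summary or the probe sets used are changed. So the count of 70 says little about how stable the ratios are. No value of the 10 members changed sign. Plin2 ran from 0.41 to 0.46, Plin3 from 0.23 to 0.26, G0s2 from 0.15 to 0.16 and Lipe from -0.26 to -0.14. Cidea, which has no probe set SD, was at -1.17 with log2(signal + 16) in place of the floor, which is no longer below -1.5. In the other 7 settings that gave a value it lay between -1.85 and -1.74. With the floor at the array median both Cidea signals, and both Cidec signals, lay at the floor and gave no ratio. When every probe set was taken as measured, all 10 members entered, 1 member (Cidea) passed the threshold, 1 passed 0.5 in size, and the members' median was 0.025. That setting adds the dim probe sets, which is the cause of the change. In the other settings no member passed 1.5 or 0.5 and the median stayed at 0.14. Over all measured genes, 28 passed 1.5 as reported, 10 with the floor at the median or with both signals at the median, 15 with log2(signal + 16) and 44 with all probe sets. No count past 0.5 in the other droplet lists changed. Their medians moved by less than the pooled probe set SD divided by the square root of the number of genes (0.08 for the very low density lipoprotein list, 0.06 for other lipolysis). Relative to their size they moved more: the first was 0.08, and 0.036 after quantile normalization and 0.028 after intensity-dependent centring, and the second was -0.0095, and 0.0062 in both of these settings and 0.0081 with the brightest probe set alone. No paired analysis was possible because each diet has 1 array. No array could be left out for the same reason, and the number of mice behind each value is unknown, so these ranges cover processing and not animals. Detection calls were not used here, which limits what can be said of signals below the array median.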
